A study of Mus musculus with 25 samples.

Results

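Cluster 13 is a small group of monocytes or macrophages from the injured mouse spinal cord. Its members are the cells that carry cluster number 13 and cell type code 2 in the authors' deposited cell table, 234 of 30958 cells in all and of 12841 cells with code 2. The cluster and type numbers carry no names in that table. All cells of cluster 13 had code 2, and they came from 15 of 25 libraries. The other 12607 cells with code 2 are called the other code 2 cells.

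Monocytes of the mouse are commonly divided into classical cells, with high Ly6C and the chemokine receptor CCR2, and non-classical cells. Classical monocytes leave the blood for injured tissue, where they can become macrophages. Non-classical or patrolling monocytes crawl along the inner wall of blood vessels, carry CX3CR1 and little Ly6C, and need the nuclear receptor Nr4a1 to develop.

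The cells were myeloid cells sorted from cord lesions of 5 mm for droplet 3′ RNA-seq, at day 1, 2, 3, 10 or 21 after injury (D1 to D21), with control libraries (Ctrl) taken after laminectomy alone. Each library held tissue of 1 to 3 mice of 1 sex, whose age the labels do not give, and the library is the replicate. All mice carried Cx3cr1CreERT2. In mice that also carried R26tdTomato, YFP-positive cells were sorted with RFP (resident libraries) or without it (infiltrating libraries), and in mice without R26tdTomato all YFP-positive cells were sorted together (mixed libraries). Strain and the use of RFP are therefore split the same way, and selection on a reporter tied to Cx3cr1 limits which cells could be found. A library at D3 titled infiltrating carries the sort label of resident cells. It is called D3_conflict 1. It held 57 of the 234 cells, and levels, gene lists, detection in single cells, the share by time and the tests by time are each given with and without it.

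A library held 155 to 3800 cells, and the lowest UMI count of a cell was 713. Cells of cluster 13 had a median of 7048.5 UMIs (range 1147 to 24043) and 2286.5 detected genes, and a median of 1.23% mitochondrial UMIs. The median UMI count was 9182 in the other code 2 cells and 3062 in the microglia, the resident macrophages of the cord. Of the 127 cell barcodes shared by more than 1 library, 2 belonged to cells of cluster 13. Libraries with at least 10 cells of the cluster had 101064 to 375197 UMIs in it. Levels are given as CPM, the UMIs of a gene scaled by the UMIs of its population, and 1 UMI was worth 2.67 to 9.89 CPM.

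By marker genes, cluster 13 was non-classical monocyte-like. All 8 markers of that list were at 20 CPM or more and at least 2 times as high as in the other code 2 cells, with 5 CPM added to both. Of the 5999 genes at 20 CPM or more in either population, 11.4% met this measure. Ace, which encodes angiotensin-converting enzyme, was at 264 CPM against 5.96 in the other code 2 cells. Treml4, a receptor of the TREM family, was at 192 against 5.87 CPM. Nr4a1 was at 208 against 9.76 CPM. Spn, which encodes the surface sialoglycoprotein CD43, was at 191 against 6.06 CPM. Cd300e, a monocyte receptor, was at 141 against 0.403 CPM. The integrin chain Itgal was at 297 against 31.4 CPM. The cells were clustered on these same genes, so these differences are a description and were not tested. Without D3_conflict 1, all 8 markers again passed this measure, Ace at 258 against 5.59 CPM and Nr4a1 at 219 against 7.89 CPM.

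Classical monocyte genes were present as well. All 8 classical markers were at 20 CPM or more, and 6 of 8 were at least 2 times as high as in the other code 2 cells. By ratios within libraries, with the rule given for the leading genes, 4 of 8 were higher and none lower, with a median log2 ratio of 1.00. The 8 summed to 8518 CPM in cluster 13, 10561 in cluster 12 and 3860 in the other code 2 cells. Ccr2 was at 930 against 285 CPM. Plac8, a small protein of myeloid cells, was at 2805 against 634 CPM. Ly6c2 was at 518 against 255 CPM, but within the 4 libraries with most cells of the cluster its median log2 ratio was 0.05 (-0.28 to 3.24). Hp, which encodes haptoglobin, was at 1224 against 264 CPM. None of 9 macrophage markers was at least 2 times as high. Beside the 11.4% of all genes that met this measure, a count of 0 of 9 is not a result. By ratios within libraries, 5 of 9 were lower and none higher (median log2 ratio -1.96), against 7.47% of all genes lower. Gpnmb, a glycoprotein of lysosome-rich macrophages, was at 29.6 against 1654 CPM. Without D3_conflict 1, 6 of 8 classical markers and 0 of 9 macrophage markers were at least 2 times as high. Ly6c2 was then at 563 against 211 CPM and Gpnmb at 4.35 against 1818 CPM. The macrophage marker Adgre1 went the other way, at 99.2 against 79.7 CPM.

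The code 2 cluster most alike over log2 CPM of the genes was cluster 12, with a Pearson correlation across genes of 0.964, followed by cluster 8 with 0.943. The dendritic-like cells, which have another code, lay between these with 0.956. Cluster 12 had Ly6c2 at 588 CPM, against 518 in cluster 13, and Ccr2 at 618 against 930. It had Ace at 17.5 CPM and Cd300e at 0.555. Genes are not independent replicates, and these correlations are given without a test.

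The genes that set cluster 13 apart were ranked in the 4 libraries with at least 20 of its cells, by the log2 ratio of its CPM to that of the other code 2 cells of the same library. An offset of 5 CPM was added to both. Of 5999 genes at 20 CPM or more in either population, 1693 were higher and 926 lower in all 4 libraries. The median ratio over these 5999 genes was 0.12. Of them, 536 (8.93%) were higher in every library with a median above 1, and 448 (7.47%) were lower in every library with a median under -1.

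Cd300e led the ranking, with a median log2 ratio of 4.93 (range over 4 libraries 4.85 to 5.34). It lies on chromosome 11 at 115051917 to 115062177 (GRCm38, GENCODE M21). Pglyrp1, a protein that binds bacterial peptidoglycan, followed with 4.57 (4.04 to 6.31), but neutrophil-like cells of the series also had it, at 353 CPM against 370 in cluster 13. Ear2, a ribonuclease of the eosinophil-associated family, had 4.39 (3.93 to 6.75). Its family has near-identical copies between which reads can be split, so its level is uncertain. Ace, on chromosome 11 at 105967945 to 105989964, had 4.36 (3.95 to 5.39). The neutrophil-like, dendritic-like and microglial cells had Ace at 0.232 to 0.995 CPM. First place in the ranking went to Ear2 with sums over all libraries and to Pglyrp1 without D1_infiltrating 1.

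Several leading genes encode transcription factors and their partners. Klf2, a factor of quiescent lymphocytes and monocytes on chromosome 8 at 72319033 to 72321656, was at 1132 CPM against 74.3 (median ratio 4.22, range 3.66 to 4.97). Nr4a1, on chromosome 15 at 101254269 to 101274795, had 3.73 (2.96 to 5.26). Pou2f2, which encodes Oct-2, had 3.29 (1.53 to 3.59), and the corepressor gene Cbfa2t3 3.12 (3.04 to 3.32). These genes were not low in all other cell types of the series. Cbfa2t3 was at 238 CPM in dendritic-like cells against 188 in cluster 13. Pou2f2 was at 211 CPM in dendritic-like cells and 219 in microglia against 616, and Klf2 at 355 CPM in neutrophil-like cells against 1132. Outside the 25 leading genes, Klf4 had 2.62 (2.23 to 4.14). The macrophage factor Maf was lower, with -2.37 (-2.60 to -2.16).

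S1pr5, the sphingosine 1-phosphate receptor that lets patrolling monocytes leave the bone marrow, was at 60.4 CPM against 0.335 (ratio 3.89, range 3.52 to 4.27). Ceacam1, an adhesion molecule, had 3.38 (2.26 to 4.95), and Rasgrp2, an activator of the integrin switch Rap1, 3.19 (2.87 to 4.19). The integrin chain Itga4, which is outside the 25, was at 527 against 56.0 CPM. Hpgd, a leading gene whose enzyme degrades prostaglandins, was at 404 against 18.7 CPM. Microglia had Hpgd at 330 CPM, so this gene does not tell cluster 13 from them. Adgre4, Eno3, Spn, Treml4, Skint3, Ccdc88c, Lilra5, Slc12a2, Ltb, Smpdl3b, Nxpe4, Grk3 and Dusp16 complete the 25, with medians of 3.06 to 4.28. Of these, Ltb, which encodes lymphotoxin β, was at 293 CPM in neutrophil-like cells against 63.2 in cluster 13. Without D3_conflict 1, 23 of the 25 were again among the highest 25, and all 25 were higher in each of the other 3 libraries. With the 8 libraries of at least 10 cells, 20 of the 25 were higher in every library. Spn, S1pr5, Slc12a2, Rasgrp2 and Dusp16 were not higher in D10_mixed 2, with log2 ratios there of -0.61 to -0.07. After thinning each cell to 1000 UMIs, 20 of the 25 were higher in all 4 libraries.

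The 10 genes lowest relative to the other code 2 cells were headed by Spp1. Spp1, which encodes the secreted protein osteopontin, was at 108 CPM in cluster 13 against 28067 (median ratio -11.00, range -12.01 to -5.54). The range came from D3_conflict 1: Spp1 was listed at 0 in the cluster 13 cells of the other 3 libraries and at 461 CPM there. The monocyte attractants Ccl2 and Ccl7 were at 10.8 and 9.68 CPM against 2961 and 1318. Fabp5, a fatty acid binding protein, was at 122 against 5138 CPM, and the lysosomal protease Ctsd at 247 against 6153 CPM. Gpnmb, Cd63, Il7r, AA467197 and Syngr1 completed the 10, with medians of -6.32 to -4.83. Without D3_conflict 1, Spp1 was at 11.6 CPM in cluster 13, Ccl7 at 4.35, Fabp5 at 42.7 and Ctsd at 162, while Ccl2 was at 10.9. With the 8 libraries of at least 10 cells, Ccl7 was not lower in 3 libraries of D10, where it was listed at 0 in both populations, and the other 9 were lower in every library.

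**Figure D1:**
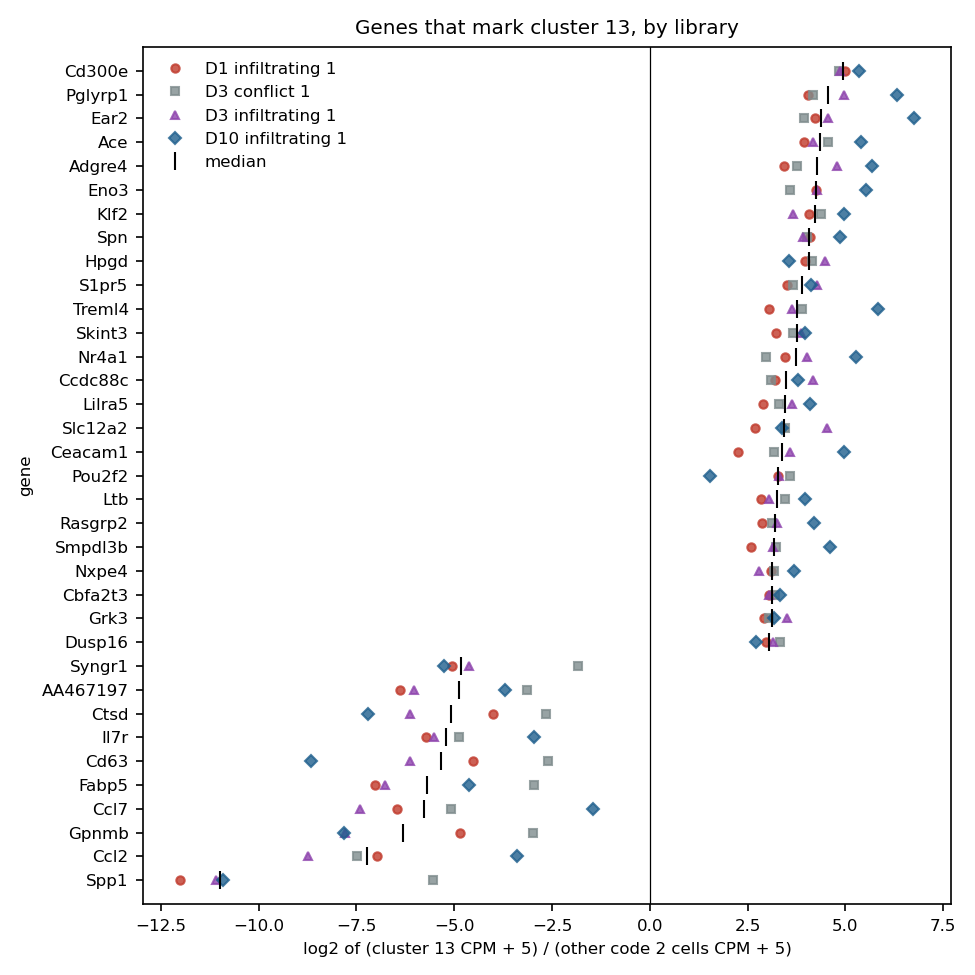
The log2 ratio of CPM in cluster 13 to CPM in the other code 2 cells of the same library (x axis, 5 CPM added to both) is plotted for the 25 highest and 10 lowest genes (y axis). Each symbol is 1 of the 4 libraries with at least 20 cluster 13 cells, and the black tick is their median; all 25 lie right of 0 in every library, and Spp1 lies farthest left, with D3_conflict 1 nearest to 0.

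Gene groups that macrophages use for debris and lipid are read here against the 8.93% of all genes higher and 7.47% lower by the rule above. Among the 14 lysosomal genes, 8 were lower and none higher (median ratio -1.05). Among 10 measured genes of the heme and antioxidant response, 8 were lower and none higher (-2.12). Among them the ferritin chain Fth1 was at 2929 against 37328 CPM. Among 13 genes of lipid handling, 6 were lower and 2 higher (-1.82), the 2 higher being the fatty acid binding protein Fabp4 and the lipid receptor Cd36. Fabp4 was at 162 CPM against 170 in sums over all libraries, so its direction rests on comparing within libraries. Cluster 12 lay on the side of cluster 13 in these groups. The lysosomal genes summed to 7953 CPM in cluster 13, 10597 in cluster 12 and 27613 in the other code 2 cells, and those of lipid handling to 7001, 10460 and 61222 CPM. In the 3 libraries without D3_conflict 1, 9.65% of all genes were higher and 7.75% lower. There 8 of 14 lysosomal, 8 of 10 heme and antioxidant and 5 of 13 lipid handling genes were lower.

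Many genes of secreted signals were lower. Among 12 chemokine genes, 8 were lower and none higher (median -2.82), while Ccl6 was at 1192 against 1513 CPM and lay at 0.40 (0.19 to 3.87). Among 18 interferon-stimulated genes, 8 were lower and none higher (-1.88), and without D3_conflict 1 these counts were 8 of 12 and 7 of 18. The interferon-induced chemokine Cxcl10 was at 11.4 against 228 CPM. Isg15, a ubiquitin-like protein induced by interferon, was at 95.1 against 567 CPM, but its ratio ran from -5.66 to 0.50 and did not pass the rule. Among 7 genes measured of the inflammatory cytokine list, 3 were lower and 1 higher (median -0.81). The 1 higher was Il1b, which encodes interleukin 1β, at 316 against 146 CPM (median 1.47, range 0.15 to 3.25). Ltb, a cytokine gene among the 25 leading genes, is not in this list. Il1rn, which encodes the natural antagonist of interleukin 1, was at 9.11 against 221 CPM.

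No member passed the rule in either direction among the antigen presentation genes of MHC class II (0 of 7, median -0.38) and class I (0 of 9, median 0.17). None passed among the genes of oxidative phosphorylation (0 of 12, median 0.15), the cytosolic ribosome (0 of 12, median 0.65) or the mitochondrial genome (0 of 10, median 0.24). Beside the 8.93% and 7.47% of all genes, counts of 0 in lists of this size are not a result about these groups. Without D3_conflict 1, 1 MHC class II gene was lower and the other 4 lists again had none. No mitosis gene of 10 reached 20 CPM in either population, and Mki67, a marker of cycling cells, was at 4.56 against 12.8 CPM. The mitosis genes summed to 38.2 CPM in cluster 13, 10.2 in cluster 12 and 95.7 in the other code 2 cells. The mannose receptor gene Mrc1 was at 6.27 against 20.1 CPM. Among 11 receptor genes for chemokines and migration, 4 were higher (Ccr2, Fpr2, Itga4 and Itgal) and 2 lower, among them the complement receptor C3ar1 at 14.2 against 332 CPM. Cx3cr1 was at 194 against 71.3 CPM in all, but at 220 against 444 CPM in D10_infiltrating 1.

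Some markers of other cell types were present and others at 0. All 7 T cell, all 6 NK cell and 5 of 6 mast cell or basophil markers were at 0, and no astrocyte, neuron, fibroblast or erythroid marker reached 20 CPM. Of 10 border macrophage markers, 2 did, and the list sum was 176 to 873 CPM over libraries. Among them F13a1 was at 475 against 430 CPM in the other code 2 cells, while Pf4 was at 1.71 against 599 CPM. Of 6 plasmacytoid dendritic markers, Bst2 (210 against 667 CPM) and Tcf4 (79.7 against 65.2 CPM) did, with list sums of 203 to 426 CPM. Of 8 dendritic cell markers, Cd209a alone did, at 30.8 against 7.15 CPM, with 5 of 8 at 0 and list sums of 22.2 to 142 CPM. Of 6 endothelial markers, Flt1 alone did, at 29.6 against 6.89 CPM, with list sums of 23.5 to 67.0 CPM. Of 9 microglia markers, 1 reached 20 CPM, and the list sum was 51.3 to 397 CPM over libraries. Of 6 B cell markers 2 did, Ighm at 144 CPM and Cd79b at 28.5, while Ms4a1 was at 0. Summed over the B cell list, the libraries lay between 128 and 359 CPM. Of 6 oligodendrocyte markers, Mbp (117 against 28.5 CPM) and Cnp reached 20 CPM, and the list sum was 70.1 to 267 CPM over libraries. Of 7 neutrophil markers, S100a8, S100a9 and Csf3r did. S100a8 ran from 0 to 600 CPM over the libraries, with its highest value in D3_conflict 1. Without that library it was at 118 against 106 CPM, and 1 rather than 3 of the neutrophil markers was at least 2 times as high as in the other code 2 cells. Ly6g was at 0. Of 7 progenitor markers, Prtn3 alone reached 20 CPM. The part of these genes in the results was not tested, and no doublet caller was run.

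Detection in single cells was compared after thinning each cell to 3000 UMIs, which left out 9 of 234 cells of cluster 13. Ace had a UMI in 49.8% of the 225 cells (exact 95% interval 43.1% to 56.5%), or in 58.5% of the 234 before thinning. At the same depth it had one in 4.04% of cluster 12 cells, 1.99% of cluster 11, 0.695% of cluster 8, 0.326% of cluster 9 and 0.0293% of microglia. Unthinned, the share was 9.89% in cluster 12 and 0.0828% in microglia. Cd300e had a UMI in 30.7% of cluster 13 cells (24.7% to 37.1%) and in 0.199% of cluster 12. Klf2 had one in 88.9% (84.0% to 92.7%) against 17.0% in cluster 12 and 20.7% in microglia. Ly6c2 had one in 36.0% (29.7% to 42.6%) against 59.3% in cluster 12. The intervals cover counting error only. Without D3_conflict 1, in 173 cells, Ace had a UMI in 49.7%, Cd300e in 30.1%, Klf2 in 88.4% and Ly6c2 in 37.6%.

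The cells of cluster 13 differed widely in how many of the 8 non-classical markers they showed. At 3000 UMIs, 57 of 225 cells had none of the 8 and 26 had 1, while 87 had 5 or more, among them 11 with all 8. In cluster 12, 1272 of 2007 cells had none and 2 had 5, with no cell above 5. Ace and Ly6c2 seldom met in a cell: 99 cells had Ace alone, 68 had Ly6c2 alone, 13 had both and 45 had neither. Without D3_conflict 1, 44 of 173 cells had none of the 8 and 67 had 5 or more, and Ace and Ly6c2 met in 11 cells against 75 with Ace alone and 54 with Ly6c2 alone. These counts describe the cluster and were not tested.

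**Figure D2:**
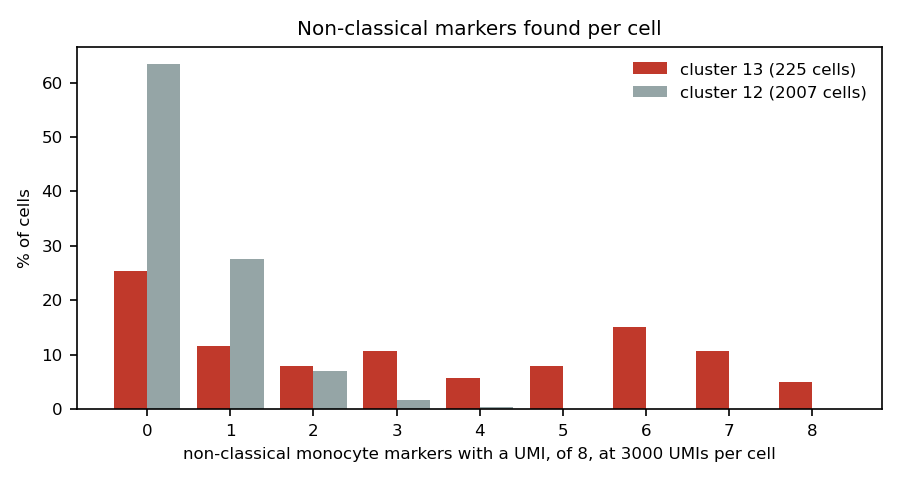
Bars give the percent of cells (y axis) with a given number of the 8 non-classical monocyte markers (x axis) after thinning to 3000 UMIs per cell, for 225 cells of cluster 13 and 2007 cells of cluster 12. Cluster 13 has cells at every number from 0 to 8, with high bars at 0 (25.3%) and 6 (15.1%), and cluster 12 lies at 0 and 1 for the most part.

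To describe this range, the 83 cells with 0 or 1 marker were set beside the 87 with 5 or more, and 55 cells with 2 to 4 lay between. These limits were chosen after the values were seen. The cells with few markers were deeper, with a median of 9779 UMIs against 4514. Classical genes went with few non-classical ones: 7 of 8 classical markers were lower in the marker-rich cells in all 5 libraries with at least 5 cells of each kind. Ly6c2 was at 856 CPM in cells with 0 or 1 marker, 334 in the middle and 29.2 in cells with 5 or more. Ccr2 was at 1402, 718 and 207 CPM in the same order. Vcan, which encodes the matrix proteoglycan versican, was at 270, 84.2 and 6.74 CPM. The exception, Hp, was lower in 4 of 5 libraries. Without D3_conflict 1, Ly6c2 was at 902, 399 and 36.6 CPM, Ccr2 at 1479, 841 and 231, and Vcan at 257, 85.1 and 2.81.

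Leading genes outside the marker list followed the markers to unequal degrees. Ear2 went from 62.0 CPM in cells with 0 or 1 marker to 1065 in those with 5 or more, and was higher in the latter in 5 of 5 libraries. S1pr5 was listed at 0 in the former and at 193 CPM in the latter. Pou2f2 went from 200 to 1429 CPM. Klf2 was high at both ends, 856 and 1543 CPM, and was higher in the marker-rich cells in 4 of 5 libraries. Hpgd was at 292 and 743 CPM and Cbfa2t3 at 116 and 323 CPM, against 18.7 and 15.2 CPM in the other code 2 cells. Spp1 was at 2.26 CPM in cells with 0 or 1 marker, 401 in the middle and 38.2 in those with 5 or more, so all lay under the 28067 CPM of the other code 2 cells. The value of the middle came from D3_conflict 1: without it Spp1 was listed at 0 in cells with 0 or 1 marker and in the middle, and was at 36.6 CPM in cells with 5 or more. Ear2 then went from 56.2 to 1070 CPM and Pou2f2 from 191 to 1281 CPM between the first and the last of these groups, and S1pr5 was again listed at 0 in the first.

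The libraries were not alike in this mix. Ace stood at 181 and 277 CPM in D1_infiltrating 1 and 2, 288 in D3_conflict 1, 422 in D3_infiltrating 1, 349 and 325 in D10_infiltrating 1 and 2, and 132 and 22.2 in D10_mixed 1 and 2. D10_mixed 2 was the lowest, and its value is 3 UMIs. Nr4a1 ran, in the same order, at 234, 129, 168, 378, 278, 188, 171 and 37.0 CPM. Again D10_mixed 2 was the lowest. Ly6c2 ran at 403, 198, 352, 489, 482, 581, 522 and 1279 CPM, with D10_mixed 2 the highest. Summed over the 8 markers, D10_mixed 2 had 333 CPM and D10_mixed 1 1137, while the other 6 libraries had 1514 to 2611.

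H2-Aa, a chain of the MHC class II molecule that presents peptides to T cells, ran in the same order at 549, 2325, 466.4, 150, 725, 658, 693 and 0 CPM. D10_mixed 2 alone was listed at 0, which allows up to 22.2 CPM there, while its other code 2 cells had 461 CPM.

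At 3000 UMIs, 26 of 36 cells of D10_infiltrating 1 had 3 or more non-classical markers, against 6 of 13 in D10_infiltrating 2, 3 of 10 in D10_mixed 1 and 1 of 10 in D10_mixed 2. D10_mixed 2 also stood apart in the antiprotease gene Slpi, with 2315 CPM against 15.8 to 405 in the other 7 libraries, and in the granule protease gene Prtn3, with 422 CPM against 19.6 to 117. The other code 2 cells of D10_mixed 1 and 2 had Prtn3 at 1643 and 3816 CPM, against 4.10 to 27.5 in the other 6 libraries. The part of these progenitor-type transcripts in the values of D10_mixed 2 was not tested. At D10 sort, strain and sequencing pool did not vary freely: both mixed libraries and D10_infiltrating 2 lay in 1 pool.

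**Figure D3:**
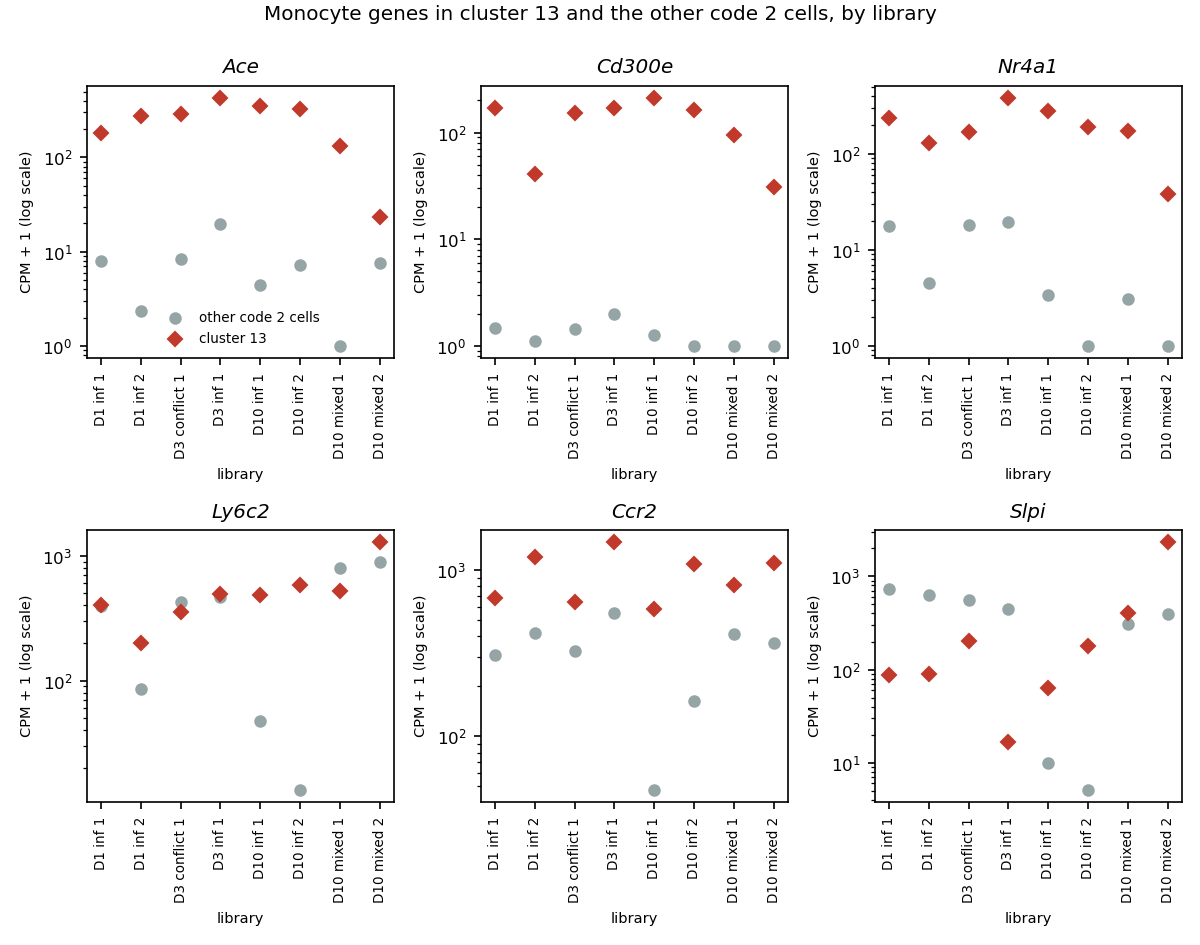
CPM plus 1 on a log axis (y) in cluster 13 (diamonds) and in the other code 2 cells (circles) of the 8 libraries with at least 10 cluster 13 cells (x, inf for infiltrating). Ace, Cd300e and Nr4a1 are higher in cluster 13 in all 8 libraries, and D10 mixed 2 is lowest for the 3 genes and highest for Ly6c2 and Slpi.

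Next came the share of cluster 13 at each time after injury. The control libraries held 1429 and 458 cells, none with code 2, so that no share could be formed; 0 cells of cluster 13 allows up to 0.21% and 0.655% of their cells (3 cells of each total). Cell numbers of cluster 13 were 46 (D1), 8 (D2), 103 (D3), 69 (D10) and 8 (D21). By sort, it had 147 cells in the infiltrating libraries (all 7 of them), 24 in the mixed (5 of 12), 6 in the resident (2 of 5) and 57 in D3_conflict 1.

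Among the code 2 cells of libraries with at least 50 of them, cluster 13 made up 1.59% ± 0.56 at D1 (SD, n = 3), 0.419% ± 0.84 at D2 (n = 4) and 2.08% ± 1.90 at D3 (n = 3). It made up 10.3% ± 7.31 at D10 (n = 5) and 0% and 8.99% in the 2 libraries at D21. The 4 infiltrating and mixed libraries at D10 had 6.56%, 11.2%, 18.9% and 14.7%, all above the 0% to 3.80% of the libraries at D1, D2 and D3. Of the libraries under 50 code 2 cells, D1_mixed 1 had 2 of 28 (7.14%, exact 95% interval 0.877% to 23.5%) and D3_resident 1 had 3 of 40 (7.5%, 1.57% to 20.4%), both above the lowest of these D10 values. The resident library at D10 had 0 of 134 code 2 cells, which allows up to 2.24% (3 cells of 134) and has an exact 95% upper limit of 2.72%. D21_infiltrating 1 had 8 of 89 (exact 95% interval 3.96% to 16.9%), and D21_mixed 1 had 0 of 78, which allows up to 3.85% (3 cells of 78) and has an exact 95% upper limit of 4.62%.

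Over all 17 libraries the share did not differ between time points past the threshold of 0.05 (2-sided exact permutation test over 1715313600 arrangements, p = 0.0539). The p fell to 0.00913 in this exact permutation test without D10_resident 1 and to 0.0214 with the infiltrating and mixed libraries only, and was 0.0418 with D3_conflict 1 added. As a share of all cells of a library, p was 0.297 (exact permutation). It was 0.0639 with libraries of at least 20 code 2 cells and 0.230 with at least 100, in the same exact permutation test. The infiltrating libraries alone, 2 at D1 against 2 at D10, gave an exact permutation p of 0.333, the smallest that their 6 arrangements allow. These alternatives are not independent tests, and a change in the number of cluster 13 cells cannot be told apart from one in the other code 2 cells. The denominators were 54 to 1885 code 2 cells in the 3 libraries at D1 and 53 to 549 in the 5 at D10.

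Within sequencing pools, libraries of the same sort could be compared over time in 4 pools. In pool 3, D1_mixed 3 had 1.85% (1 of 54 cells) against 0% in D21_mixed 1. In pool 6, D1_infiltrating 1 and 2 had 1.97% and 0.955% against 1.68% in D2_infiltrating 1. In pool 4, D2_mixed 1 and 2 had 0% against 0.0331% in D3_mixed 3, which is 1 of 3019 cells. In pool 7, D10_resident 1 and D2_resident 1 both had 0%. No pool held an infiltrating or mixed library at D10 beside one of the same sort at another time after injury. Pool 2 also held a mixed control library, which had no code 2 cells. Its share of cluster 13 among all cells was 0 of 1429, against 0.824% and 0.995% in D10_mixed 1 and 2. Between sorts, D10_infiltrating 1 of pool 7 had 6.56% against 0% in these 2 resident libraries. In pool 4, D21_infiltrating 1 had 8.99% against the values of the 3 mixed libraries. In pool 5, D3_infiltrating 1 had 2.40% against 3.80% in D3_resident 2, and in pool 2, D10_infiltrating 2 had 11.2% against 18.9% and 14.7% in the mixed libraries. The pairs within D3 and within D10 differ in sort and not in time, and the other pairs between sorts differ in both.

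**Figure D4:**
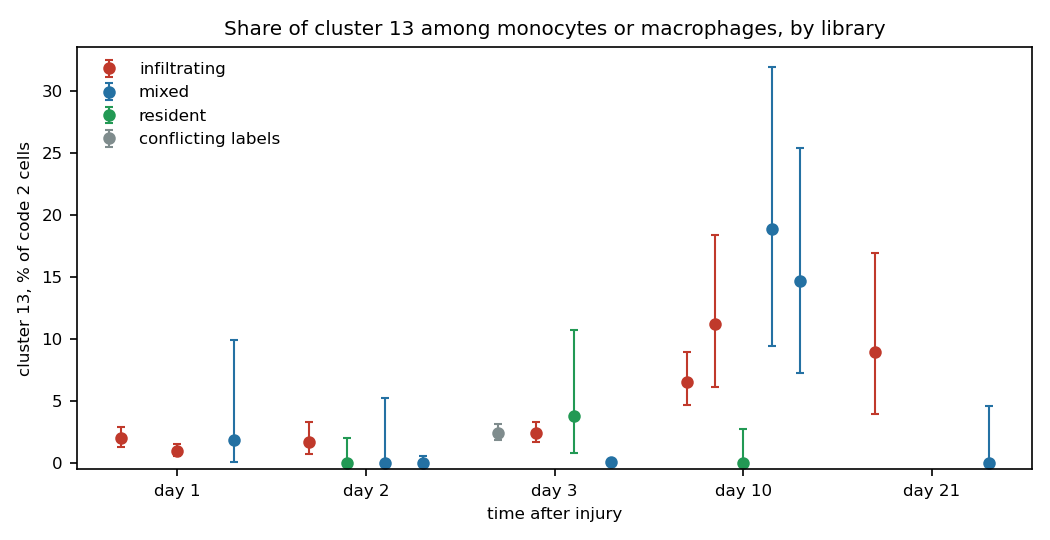
The percent of code 2 cells in cluster 13 (y axis) is shown by days after injury (x axis) for each library with at least 50 code 2 cells, coloured by sort, with exact binomial 95% intervals. At day 10 the infiltrating and mixed libraries lie between 6.56% and 18.9%, and the resident library is at 0.

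To see how gene expression of cluster 13 changed with time, its UMI counts were summed per library. Sums of at least 20 cells left a single library per time point and no test, so sums of at least 10 cells are reported: 2 libraries at D1, 1 at D3 and 4 at D10. Over 3460 genes tested, 4 (0.116%) rose from D1 to D10 and none fell at an adjusted p of 0.05 (edgeR quasi-likelihood test, 208 genes at an unadjusted p under 0.05). DESeq2 also called 4 genes, 2 of them among these. The direction of the calls depended on the setting: with infiltrating libraries only, 2 against 2 and with sort held equal, 12 were higher and 24 lower, and without an expression filter 18 were higher and 20 lower (the 4 genes among them both times).

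Among the 4 were Gm11808, Rps10 and Gstp1. Rps10, a protein of the small ribosomal subunit, was at 765 and 406 CPM at D1 and at 1968, 1119, 1558 and 1228 at D10 (log2 change 1.54 ± 0.24 SE, adjusted p = 0.0474 by edgeR). Gm11808, a predicted gene, was at 93.4 and 69.3 CPM and then at 244 to 396. Gstp1, a glutathione transferase, was at 35.0 and 19.8 CPM and then at 96.1 to 263 (log2 change 2.94 ± 0.49, adjusted p = 0.0491 by edgeR). The D1 and D10 values do not overlap for any of these 3, which was a condition for naming them.

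In the other code 2 cells Rps10 likewise stood at 531 and 263 CPM at D1 and at 1343 to 1909 at D10. The D1 libraries came from 1 sequencing pool and the D10 libraries from 2 others, and time cannot be told apart from pool. None of the 4 genes was called with D3_conflict 1 added (0 genes in all, 168 at an unadjusted p under 0.05), without D1_infiltrating 1 or 2, or without any of D10_infiltrating 1, D10_infiltrating 2 and D10_mixed 1. The 4 were also lost with sort as a term, where the 1 gene called was lower at D10, with the replicate block (0 called) and with sums of at least 5 cells (0 called). Without the sex term, 1 of the 4 was called. Both D1 libraries were infiltrating, and 2 of 4 at D10 were mixed. Without D10_mixed 2, 21 genes were called, 8 higher and 13 lower, with these 4 among them.

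None of the 8 non-classical markers passed this test (median log2 change 0.08; all genes tested -0.01). Ace had a change of -0.02 ± 0.61 (SE) and Nr4a1 one of 0.15 ± 0.45. None of 8 classical markers passed either, Ly6c2 having 1.16 ± 0.48 (adjusted p = 0.799 by edgeR). Beside the 0.116% of all genes called, counts of 0 in lists of 8 are not a result about these markers. Apoe, the lipid carrier apolipoprotein E, was at 4281 and 12655 CPM at D1 and at 521, 265, 1277 and 3957 at D10 (-2.85 ± 0.63, adjusted p = 0.194 by edgeR). Apoe did not pass the test. Its D1 and D10 values did not overlap, but with so few libraries this can arise without a change. The share of all tested genes without overlap is not given here, so the lack of overlap is not read as a fall of Apoe. In simulated counts of this layout with 4478 genes, 88 of 100 genes changed 4-fold and 100 of 100 changed 16-fold were recovered, with 4 false calls over both sizes. The simulation gave every gene the same spread and changed only genes with many UMIs. Recovery of genes with a larger spread or fewer UMIs was not tested.

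With D3_conflict 1 added, D3 could be compared as well. Of 3105 genes tested, 0 (0%) passed for D3 against D1 (edgeR, 138 at an unadjusted p under 0.05), and 0 passed for D10 against D3 (419 at an unadjusted p under 0.05).

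The change from D1 to D10 was then compared between cluster 13 and the other code 2 cells of the same libraries, with library as a block. It differed for 186 of 7396 genes (2.51%): 116 (1.57%) changed more upward, or less downward, in cluster 13, and 70 (0.946%) the opposite (edgeR, adjusted p under 0.05; DESeq2 called 223, of which 166 are among the 186). In 176 of the 186 genes the mean log2 CPM moved further in the other code 2 cells than in cluster 13. For the 116, the median change was 0.11 in cluster 13 and -2.30 in the other code 2 cells. For the 70, it was -0.45 and 2.07. In simulated counts for this comparison with 6725 genes, 13 of 83 genes changed 4-fold and 68 of 86 changed 16-fold were recovered, with 2 false calls over both sizes. Here too every gene had the same simulated spread, and only genes with many UMIs over both populations were changed.

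These other code 2 cells were made up differently at the 2 times. At D1, clusters 8, 11 and 12 held 94.5% and 99.4% of them in the 2 libraries. At D10, clusters 3 and 9 held 95.9% and 92.2% in the infiltrating libraries and 72.1% and 69.0% in the mixed, and cluster 10 held 18.6% and 20.7% in the mixed. The difference of changes therefore sets cluster 13 against a changing mixture.

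The genes named on the higher side were lower at D10 than at D1 in the other code 2 cells. Hmox1, the heme-degrading enzyme, was at 93.4 and 109 CPM in cluster 13 at D1 and at 372, 103, 187 and 141 at D10. In the other code 2 cells it was at 3087 and 3816 CPM and then at 86.1 to 135. The difference of log2 changes was 5.87 ± 0.52 (SE, adjusted p = 1.45e-05 by edgeR). Ccl6, a monocyte chemokine, was at 1390 and 693 CPM and then at 1282, 1375, 865 and 1612 in cluster 13, against 1219 and 4707 and then 55.4 to 144 in the other cells (5.03 ± 0.63, adjusted p = 0.00053 by edgeR). F10, which encodes coagulation factor X, was at 187 and 129 CPM and then at 94.0 to 265, against 552 and 961 and then 8.20 to 61.7 (4.58 ± 0.50). Every library of D10 lay above both of D1 in the ratio of cluster 13 to the other cells for these 3 genes. Ratios without overlap were a condition for naming genes here, and 178 of the 186 genes met it.

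Chil3, a chitinase-like protein of monocytes, was at 2908 and 6897 CPM in cluster 13 at D1 and at 682, 1264, 4035 and 3602 at D10. In the other cells it was at 3108 and 2921 CPM and then at 22.5 to 483. Ccl2 was near its floor in cluster 13, at 23.4 and 49.5 CPM and then at 0 to 34.2, where 3 UMIs are 11.8 to 29.7 CPM in these libraries. In the other cells it was at 3583 and 7819 CPM and then at 12.3 to 65.6. Il1b was at 280 and 158 CPM and then at 17.1 to 241 in cluster 13, against 252 and 243 and then 3.92 to 17.7 in the other cells. The remaining genes named on this side were Slpi, Cd177, Cstb, Plcb1, Ccl9 and Fabp5. In the 2 libraries of D1, cluster 13 had 6 and 0 UMIs of Cd177, 2 and 4 of Plcb1, and 3 and 0 of Fabp5.

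On the opposite side stood genes that were higher at D10 in the other code 2 cells. Apoe was there at 4189 and 7186 CPM at D1 and at 29989 to 119517 at D10, against the lower D10 values of cluster 13 given above (difference -6.35 ± 1.13, adjusted p = 0.00521 by edgeR). C1qa, a chain of complement C1q, was at 243 and 245 CPM there at D1 and at 1644 to 4982 at D10. In cluster 13 it was at 111 and 693 CPM and then at 7.84, 0, 15.6 and 281 (-6.44 ± 1.34, adjusted p = 0.0121 by edgeR). Cx3cr1 was at 152 and 148 CPM in cluster 13 and then at 220, 308, 38.9 and 22.2, the 2 lowest in the mixed libraries. In the other cells it was at 46.6 and 19.6 CPM, then at 444 and 502 in the infiltrating and 22.6 and 20.9 in the mixed libraries (-2.89 ± 0.55, adjusted p = 0.00744 by edgeR).

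The other genes named on the lower side had too few UMIs in cluster 13 to show a change there. Top2a, Birc5 (survivin), Stmn1 (stathmin), Ccnb2 (cyclin B2), Fbxo5 and Cdca3 serve cell division, Gpx3 is a secreted glutathione peroxidase and Phgdh an enzyme of serine synthesis. Each had 3 UMIs or fewer in cluster 13 in 4 to 6 of these 6 libraries. They entered the test through the counts of the other code 2 cells. Top2a was at 0 to 9.89 CPM in cluster 13, and at 261 and 494 CPM in the other code 2 cells of the mixed libraries at D10. At D1 the mean levels, from few UMIs in cluster 13, were 20.4 against 2.66 CPM for Birc5, 23.4 against 1.67 for Ccnb2 and 32.1 against 10.6 for Stmn1 (n = 2). All UMIs of Birc5, Ccnb2 and Stmn1 at D1 came from D1_infiltrating 1. The difference turned to the higher side for Stmn1 and Cdca3 without that library and did not pass there.

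**Figure D5:**
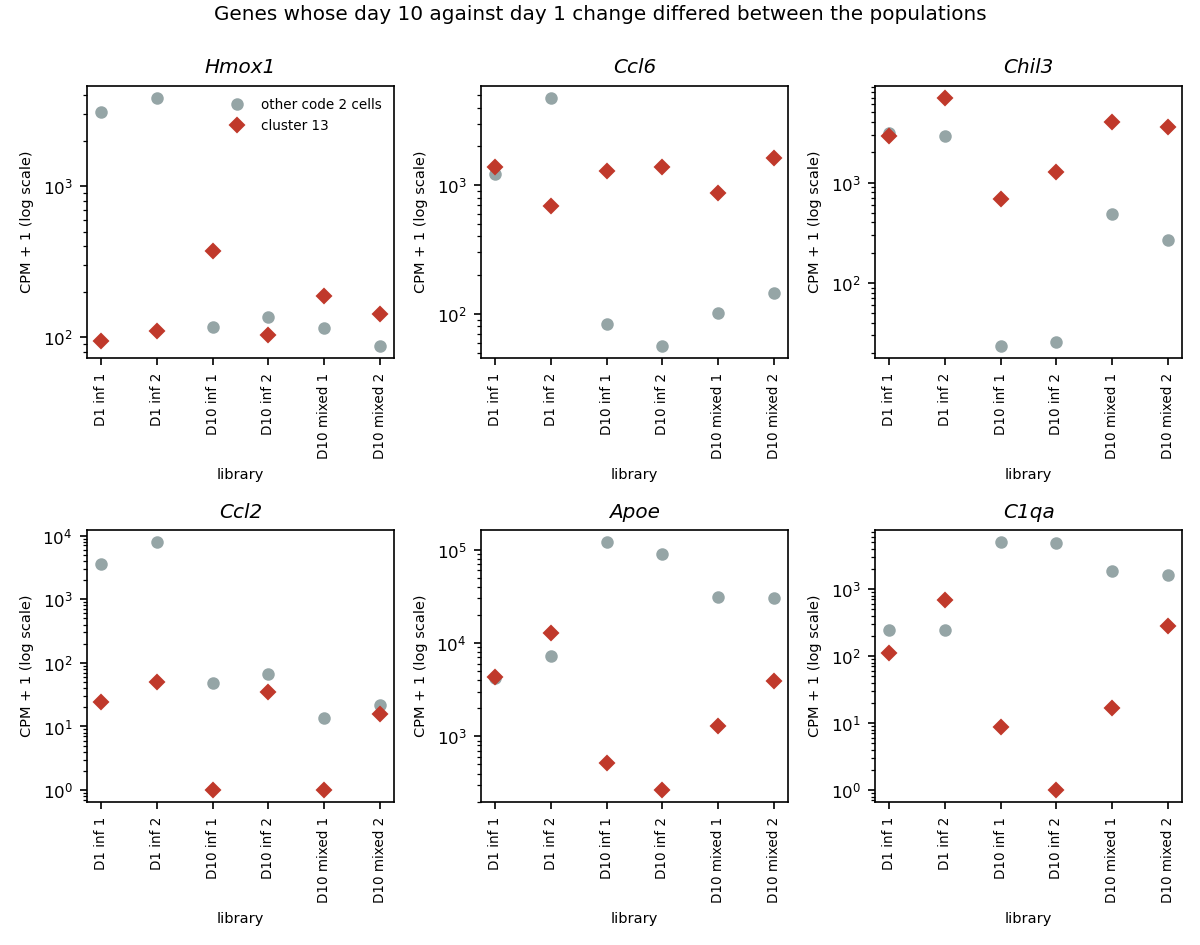
CPM plus 1 on a log axis (y) in cluster 13 (diamonds) and in the other code 2 cells (circles) of the 2 libraries of day 1 and the 4 of day 10 (x, inf for infiltrating). In the other code 2 cells Hmox1, Ccl6, Chil3 and Ccl2 lie lower at day 10, and Apoe and C1qa higher, while in cluster 13 Ccl6 and Hmox1 overlap between the days and Apoe lies lower at day 10.

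Read by list against the 2.51% of all genes, 3 of 13 chemokine genes passed with the higher sign (Ccl2, Ccl6 and Ccl9) and none with the lower. Ccl2 had at most 5 UMIs in cluster 13 in any of the 6 libraries, so its call rests on the other code 2 cells and is not read as a change in cluster 13. Ccl6 had 70 to 327 UMIs there and Ccl9 19 to 45. Of 14 genes of lipid handling, 4 passed as higher (Fabp5, Cd36, Plin2 and Lgals3) and Apoe as lower. Fabp5 had 3 and 0 UMIs in cluster 13 at D1 and 6 to 23 at D10, so its change there rests on few UMIs. Of 10 genes of the heme and antioxidant response, 3 passed as higher (Hmox1, Prdx1 and Fth1). Of 10 mitosis genes, 4 passed as lower, none of them at 20 CPM or more in cluster 13, so these are not read as changes in it. Of 8 classical markers, Vcan and Chil3 passed as higher, and none of the 8 non-classical markers passed (median difference 1.21; all genes tested -0.01). Of 9 macrophage markers, the scavenger receptor gene Msr1 passed as higher (3.79 ± 0.55, adjusted p = 0.00107 by edgeR), and Apoe, C1qa and C1qb as lower. Of 11 complement and Fc receptor genes, Cfp and Fcgr1 passed as higher and C1qa and C1qb as lower. Of 8 genes of alternative activation and repair, 3 passed as higher (Chil3, Tgfbi and Fn1). Of 18 interferon-stimulated genes, Rsad2 and Ifi204 passed as higher, Rsad2 with at most 12 UMIs in a library of cluster 13. Both B cell markers tested, Ighm and Cd79b, passed as lower, with 11 to 37 and 2 to 7 UMIs. In the other code 2 cells the mean log2 CPM of Ighm moved by 3.16, against 0.64 in cluster 13. Nr4a1 had a difference of 2.61 ± 0.68 with an adjusted p of 0.0515 by edgeR. None of the 12 listed cytosolic ribosome, 12 oxidative phosphorylation, 10 MHC class II or 9 MHC class I genes passed. Beside the 2.51% of all genes, these counts of 0 and that of the non-classical markers are not a result. Over the 81 ribosomal protein genes tested, a group chosen after the values were seen, 8 passed, all as lower (Rps4x, Rps12, Rps20, Rps21, Rpl10a, Rpl36a, Rpl39 and Rplp1). Their differences were -1.72 to -1.20 (adjusted p of 0.0109 to 0.041 by edgeR), and the median over the 81 was -0.78. For example, the mean log2 CPM of Rps12 moved by 0.32 in cluster 13 and by 1.78 in the other code 2 cells.

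Both libraries of D1 weighed on this comparison. Without D1_infiltrating 2, 20 genes were called, and without D1_infiltrating 1, 52 (20 and 47 of them among the 186). With 1 of the 2 left out, here and in the test of time above, the lone D1 library is assumed to vary like the other groups. With D3_conflict 1 added, 223 of 7100 genes (3.14%) were called for D10 against D1, 136 (1.92%) higher and 87 (1.23%) lower, and 180 of the 223 were among the 186. For D10 against D3, 275 (3.87%) were called, 168 (2.37%) higher and 107 (1.51%) lower, and 0 for D3 against D1 (edgeR, 160 at an unadjusted p under 0.05).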

How the data were processed

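The deposited files hold unnormalized UMI counts for each gene in each cell of 25 libraries, which the authors made from 10x Genomics 3′ reads. The submitters' processing notes name Cell Ranger 3.1.0 and the builds GRCm38 and mm10, and no counting options are given in the sources used here. All 30958 cells of the deposited cell table were used, with its cluster and type numbers. No doublet caller was run and no free RNA was subtracted. The members and gene lists were chosen with earlier results of these data known.

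Counts were summed per library for cluster 13 and for the other code 2 cells. Libraries are pools of 1 to 3 mice. Leading genes are described by within-library ratios with an offset of 5 CPM, with no test. The 25 named as higher and 10 as lower had the largest median ratio among genes of the same sign in every library with at least 20 cells of the cluster, and the genes named from a test had the largest change among those called whose groups did not overlap, up to 10 in each direction. Ly6c2, Ccr2, Cx3cr1, Mrc1, Apoe, Spp1, Gpnmb, Fabp5, Il1b, H2-Aa, Isg15 and Mki67 were named whatever their values. Some genes that these rules name are not reported here. Other genes were named as list members or as examples chosen after their values were seen. Sums were tested with edgeR 4.0.16 in R 4.3.3 (quasi-likelihood, Benjamini-Hochberg adjusted p under 0.05), with time and sex as terms, or with library as a block for the difference between populations. The planned minimum of 20 cells gave no test, so sums of at least 10 cells are reported. DESeq2 1.42.0 was an alternative. Shares were compared by exact permutation over libraries with at least 50 code 2 cells. The tests were tried on simulated counts. Intervals and limits cover counting error only.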

Additional observations from a re-analysis of the deposited data

Results flagged for a closer look

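In groups of 4 to 10 libraries, a value was singled out where its gap to the nearest other value, divided by the range of the group, passed Dixon's 95% limit. This held for 13 of 74 groups, and chance gives about 1 in 20. The share of cluster 13 at D2 had a ratio of 1, since D2_infiltrating 1 alone had such cells. In the 4 libraries of cluster 13 at D10, the CPM of Spp1, Cd63, Mrc1, Mki67, Top2a, Birc5, Fbxo5 and Ccnb2 also had a ratio of 1, each with 1 library above 0, which had 1 to 5 UMIs of the gene. A ratio of 1 follows there from all others being at 0, so the rate of 1 in 20 does not hold for these 9 groups. The ratio was 0.876 for Ly6c2, 0.848 for Slpi and 0.945 for C1qa, all highest in D10_mixed 2, and 0.907 for H2-Aa, lowest there.

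The change from D1 to D10 differed between cluster 13 and the other code 2 cells for the named genes by the edgeR test of the difference itself. On the higher side the adjusted p was 1.45e-05 for Hmox1, 0.000162 for F10, 0.00053 for Ccl6, 0.000857 for Slpi, 0.00274 for Cd177, 0.00278 for Plcb1, 0.00331 for Cstb, 0.00629 for Ccl9, 0.0079 for Ccl2 and 0.00815 for Fabp5. On the lower side it was 0.000682 for Birc5, 0.00168 for Gpx3, 0.00274 for Stmn1, 0.00521 for Apoe, 0.00561 for Ccnb2, 0.0121 for C1qa, 0.0246 for Top2a, 0.0303 for Fbxo5, 0.036 for Phgdh and 0.0365 for Cdca3. Birc5, Gpx3, Stmn1, Ccnb2, Top2a, Fbxo5, Phgdh and Cdca3 had 3 UMIs or fewer in cluster 13 in 4 to 6 of the 6 libraries and entered the test through the other code 2 cells, so these p-values do not show a change in cluster 13. The same holds for Ccl2, which had at most 5 UMIs there in any library. Cd177, Plcb1 and Fabp5 had at most 6 UMIs in cluster 13 in a library of D1, so their changes there rest on few UMIs.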

How the results depend on the processing

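For D10 against D1 in cluster 13, the count of 4 genes became 38 without an expression filter (18 higher, 20 lower), 36 with infiltrating libraries only (12 and 24), 2 without the sex term, 1 with sort as a term (a lower one), and 0 with D3_conflict 1 added or with sums of at least 5 cells. It ran from 0 to 21 when each library was left out. Same-numbered libraries did not deviate together (correlations -0.0256 to 0.0646), and 0 genes were called with the replicate block. Fits with at least 50 cells or with pool as a term could not be made.

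For the difference of changes, the count of 186 became 389 without a filter and 421 with infiltrating libraries only, and ran from 20 to 269 when each library was left out (52 without D1_infiltrating 1). Stmn1 (adjusted p = 0.992 by edgeR) and Cdca3 (adjusted p = 1) changed sign without D1_infiltrating 1. The causes were not tested.

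The exact permutation p for the share, 0.0539, became 0.0214 with infiltrating and mixed libraries only and 0.0418 with D3_conflict 1. It ran from 0.00913 to 0.112 when each library was left out, and was 0.0216 without either library of D21, which removes that time point. It was 0.113 without D2_mixed 2 and D3_mixed 3, 0.0639 and 0.230 with at least 20 and 100 code 2 cells a library, and 0.333 with infiltrating libraries only. Of the 25 leading genes, 17 to 24 were among the 25 under each alternative, 17 after thinning each cell to 1000 UMIs. Then, and with libraries of at least 10 cells, 20 of the 25 were higher in every library. The alternatives with infiltrating libraries only, with at least 5 cells and without D2_mixed 2 and D3_mixed 3, and the levels, lists and cell counts without D3_conflict 1, were chosen after seeing the data. Depth limits genes under about 3 UMIs per library, which are 29.7 CPM in the shallowest sum.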
